A study of Mus musculus with 20 samples.

Results

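The p53 pathway was followed here through 9 mouse genes, chosen by name: Trp53, which encodes the transcription factor p53, and its targets Cdkn1a, Mdm2, Ccng1, Bax, Bbc3, Gadd45a, Phlda3 and Zmat3. They are 9 of the 55471 gene identifiers in the deposited count table, and each was read as a gene and as the region upstream of it in which PROMPTs are counted. PROMPTs (promoter upstream transcripts) are short-lived RNAs made next to active promoters. Zcchc8 encodes the scaffold of the nuclear exosome targeting complex, which hands such RNAs to the RNA exosome for degradation.

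The cells were of the SIMS line, derived from mouse salivary gland and grown in DMEM with fetal bovine serum, with total RNA sequenced from a stranded kit. The 5 groups of 4 libraries were wild type, Btbd7 KO (the study's negative control, a Cas9 knockout of another gene), and the Zcchc8 KO clones 1, 2 and 3, also made with Cas9. Each clone is 1 edited line, so its 4 libraries are not 4 independent edits. The labels do not say whether the 4 libraries of a group came from separate cultures, and p-values therefore measure the spread between these libraries, which may be technical.

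p53 is held low in unstressed cells because MDM2, itself a p53 target, marks it for destruction. When DNA is damaged or ribosomes fail to assemble, p53 escapes MDM2 and raises its targets. These stop the cell cycle (Cdkn1a, Gadd45a), restrain p53 or Akt signalling (Mdm2, Ccng1, Phlda3), steer splicing (Zmat3) or open the way to apoptosis (Bax, Bbc3). p53 binds a site of 20 bases made of adjoining copies of a 10-base unit, each with a C and a G at fixed places in its core.

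Promoter windows from RefSeq (GRCm38.p6), 250 bases before to 50 after a transcription start, were found for 8 of the 9 genes, in 11 windows. A 20-base match to the p53 consensus with at most 2 mismatches, the C and G of both cores in place, lay in the windows of 2 genes, Cdkn1a and Ccng1, each with 1 mismatch. In Ccng1 the mismatch lies within the core, between the C and G of the first unit. Such a match was present in 107 of all 32851 windows (0.326%). The consensus reads alike on both strands, so 1 search covers both. A perfect 10-base unit was present in the windows of 6 genes (Trp53, Cdkn1a, Mdm2, Ccng1, Bax and Gadd45a) and in 8.36% of all windows; the full matches overlap such units. Bbc3 and Phlda3 had neither in these windows. A match of letters is a description and does not show binding. The 250 bases before the start are printed 5′ to 3′ on the gene's strand for Cdkn1a and Ccng1, which hold the full matches and whose transcripts fell, and for Mdm2, whose upstream RNA rose with the smallest adjusted p of the 9. Capitals mark the 20-base match in Cdkn1a and Ccng1 and the 10-base unit in Mdm2. The Cdkn1a window is chr17:29090729-29090978 on the plus strand, the Ccng1 window chr11:40755287-40755536 on the minus strand, and the Mdm2 window chr10:117710759-117711008 on the minus strand.
Cdkn1a: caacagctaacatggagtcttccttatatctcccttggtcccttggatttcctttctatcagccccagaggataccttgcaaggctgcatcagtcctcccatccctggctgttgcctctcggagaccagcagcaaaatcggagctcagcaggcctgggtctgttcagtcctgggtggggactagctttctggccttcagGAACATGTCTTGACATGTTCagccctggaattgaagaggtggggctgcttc
Ccng1: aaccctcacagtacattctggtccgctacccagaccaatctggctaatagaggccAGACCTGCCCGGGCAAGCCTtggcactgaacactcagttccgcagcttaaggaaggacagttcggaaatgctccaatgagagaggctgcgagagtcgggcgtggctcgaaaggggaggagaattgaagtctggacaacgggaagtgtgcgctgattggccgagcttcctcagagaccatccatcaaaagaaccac
Mdm2: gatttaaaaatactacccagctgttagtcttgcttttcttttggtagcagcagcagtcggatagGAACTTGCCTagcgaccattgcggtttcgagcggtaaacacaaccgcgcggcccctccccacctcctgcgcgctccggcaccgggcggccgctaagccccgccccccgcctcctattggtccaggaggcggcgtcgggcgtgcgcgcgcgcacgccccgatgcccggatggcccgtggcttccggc

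The Cdkn1a window belongs to the upstream of 2 annotated starts, 2790 bases apart. Its match begins 51 bases before that start and 2841 bases before the downstream one. The Ccng1 match begins 195 bases before the start. Of the members' windows, only that of the upstream Cdkn1a start was poor in CpG, with 2 of them; the others held 10 to 39. For Mdm2, the p53-responsive promoter known from the literature lies inside the gene, beyond the window searched.

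Depth ranged from 6833258 to 17771804 gene counts per library, and clone 1 was the shallowest group, at no more than 7683444. Btbd7 RNA fell from 201.9 ± 7.66 CPM (gene counts scaled to a common library total; SD, n = 4) in wild type to 99.2 ± 3.24 in Btbd7 KO. Zcchc8 RNA was 65.1 ± 2.92 CPM in wild type and fell in clone 2 (23.3 ± 1.35) and clone 3 (54.6 ± 4.83), but was 60.3 ± 4.29 in clone 1 (edgeR quasi-likelihood adjusted p = 0.291), where the RNA level therefore does not check the label. Wild-type replicate 1 stood apart, with 14245 genes detected against 17615 to 20889 in the 16 edited libraries, and results it touches are given with and without it. It has no column in the PROMPT table, which holds 19 libraries. Epithelial markers were all present, at a summed 3105 to 5048 CPM over the 20 libraries, and endothelial markers were at 0 to 1.15 CPM.

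Wild-type SIMS cells expressed all 9 genes. Per kilobase of exon, Ccng1 had the highest level (54.9 ± 4.65 CPM per kb, SD, n = 4), and Bbc3 the lowest (2.00 ± 0.893). Trp53 (36.2 ± 6.46), Phlda3 (31.5 ± 1.70), Gadd45a (26.0 ± 5.25), Bax (22.5 ± 8.42) and Mdm2 (16.1 ± 1.60) followed Ccng1, each overlapping its neighbour in this order. Zmat3 (10.5 ± 1.06) and Cdkn1a (7.14 ± 0.587) came next, and neither overlapped the gene beside it.

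**Figure D1:**
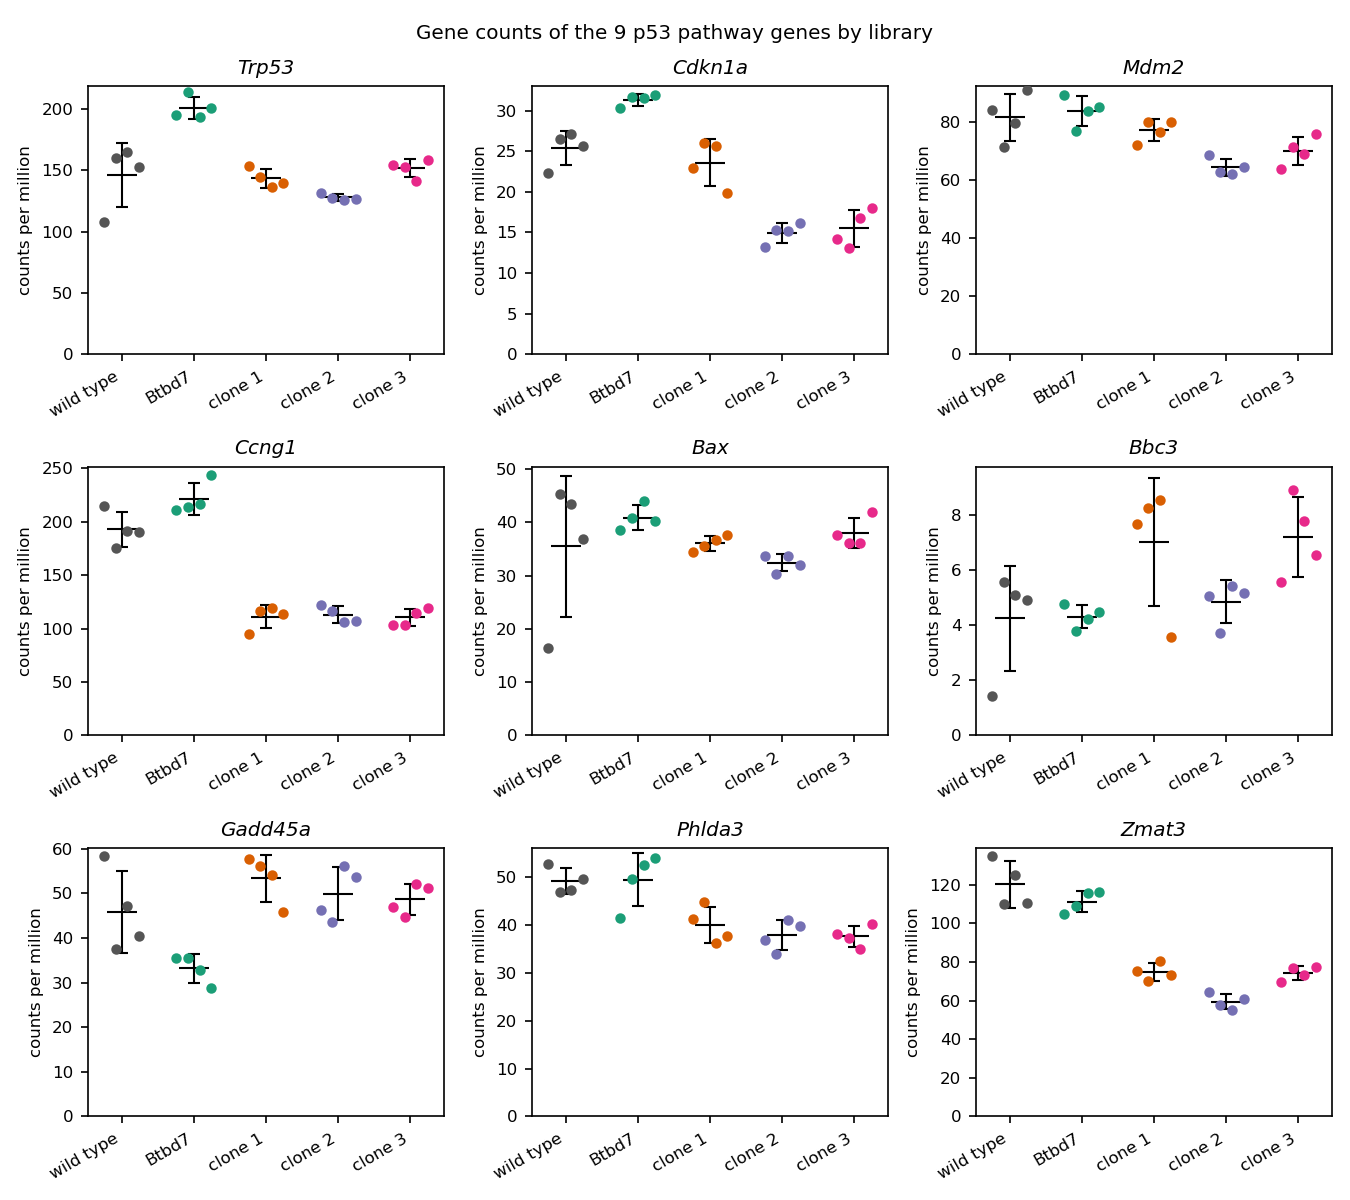
Level of each of the 9 genes in CPM (vertical axis, from 0) in the 20 libraries of the 5 groups (horizontal axis); points are libraries, bars the mean ± SD of 4. All 12 Zcchc8 KO libraries lie below wild type for Ccng1, Phlda3 and Zmat3, while clone 1 overlaps wild type for Cdkn1a.

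Loss of Zcchc8 was accompanied by lower RNA of 5 of the 9 genes and higher RNA of none. The mean of the 3 clones was below wild type for Zmat3, Ccng1, Cdkn1a, Phlda3 and Mdm2 at an adjusted p under 0.05 (edgeR quasi-likelihood test, Benjamini-Hochberg over 15297 genes). The background in this comparison was 19.9% of all genes called lower and 16.2% called higher. The median log2 fold change over the 9 genes was -0.21, against -0.0057 over all genes tested. Fewer cells that express a gene and less RNA per cell cannot be told apart in these bulk libraries.

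Zmat3 encodes a zinc-finger protein that binds RNA and acts on splicing downstream of p53. It read 135, 110.2, 125.2 and 110.5 CPM in wild-type replicates 1 to 4, 104.6, 108.9, 115.6 and 116 in Btbd7 KO, 75.4, 69.9, 80.5 and 73.4 in clone 1, 64.4, 57.8, 54.9 and 60.6 in clone 2, and 69.4, 76.8, 73.3 and 77.1 in clone 3. Every Zcchc8 KO library was below every library of both control lines, and clone 2 was the lowest group. The mean of the clones was 57.4% of wild type (log2 fold change -0.80 with an SE of 0.06, edgeR quasi-likelihood adjusted p = 6.465e-11).

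Ccng1, whose product cyclin G1 brings a phosphatase to MDM2, behaved with less spread between clones. Its values were 214.8, 175.3, 191.2 and 190.2 CPM in wild type, 211.5, 214, 216.7 and 243.9 in Btbd7 KO, 95.3, 116.5, 119.1 and 113.7 in clone 1, 122.4, 116.8, 105.9 and 106.8 in clone 2, and 103.6, 103.6, 115 and 119.4 in clone 3. No Zcchc8 KO library reached the lowest control library. The 3 clones had log2 fold changes of -0.80, -0.77 and -0.80 against wild type, and their mean stood at 57.8% of wild type (SE 0.06, edgeR adjusted p = 1.76e-10).

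Cdkn1a encodes p21, the cyclin-dependent kinase inhibitor through which p53 halts the cell cycle. Wild type read 22.4, 26.4, 27.1 and 25.6 CPM, Btbd7 KO 30.3, 31.7, 31.5 and 31.9, clone 1 22.9, 26, 25.6 and 19.9, clone 2 13.2, 15.3, 15.2 and 16.1, and clone 3 14.2, 13.1, 16.8 and 17.99. Clones 2 and 3 were wholly below both control lines, whereas clone 1 overlapped wild type and was below Btbd7 KO only. Against wild type the log2 fold change was -0.11 in clone 1, which the edgeR test did not call (adjusted p = 0.509), -0.76 in clone 2 (1.147e-05) and -0.70 in clone 3 (4.12e-05).

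Phlda3, which encodes a competitor of Akt for membrane lipids, was at 52.7, 47.0, 47.3 and 49.6 CPM in wild type and 41.5, 49.6, 52.6 and 54.0 in Btbd7 KO. It read 41.2, 44.7, 36.2 and 37.7 in clone 1, 36.9, 33.8, 41.0 and 39.7 in clone 2, and 38.2, 37.3, 34.9 and 40.1 in clone 3. All 12 Zcchc8 KO libraries were below wild type, but those of clone 1 overlapped Btbd7 KO, whose replicate 1 was low. The mean of the clones was 78.4% of wild type (log2 change of -0.35 with an SE of 0.07, edgeR quasi-likelihood adjusted p = 4.46e-04).

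Mdm2, the ubiquitin ligase that keeps p53 low, changed least among the 5. It read 84.2, 71.5, 79.7 and 90.9 CPM in wild type, 89.3, 76.7, 83.9 and 85.0 in Btbd7 KO, 72.0, 80.0, 76.4 and 80.1 in clone 1, 68.5, 62.8, 61.9 and 64.6 in clone 2, and 63.9, 71.3, 68.8 and 75.8 in clone 3. Only clone 2 was wholly below wild type, while clones 1 and 3 overlapped it. Against wild type the clones' mean was -0.21 on the log2 scale (SE 0.06, edgeR quasi-likelihood adjusted p = 0.00681), and this call was lost without wild-type replicate 4 (-0.14, adjusted p = 0.103) and without the TMM scaling factors (-0.14, adjusted p = 0.08243).

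The other 4 genes, p53 itself, both death effectors and Gadd45a, did not pass the test against wild type with all libraries. Trp53 was at 108, 160.3, 164.8 and 152.8 CPM in wild type, with group means of 143.4 ± 7.60, 127.8 ± 2.71 and 151.8 ± 7.47 in clones 1, 2 and 3 (SD, n = 4), and the clones' mean differed by -0.06 on the log2 scale (edgeR adjusted p = 0.560). Bax, which encodes a pore former of the outer mitochondrial membrane, was at 16.3, 45.3, 43.5 and 36.8 CPM in wild type, and its clone means were 36.1 ± 1.42, 32.4 ± 1.59 and 38.0 ± 2.78 (log2 fold change -0.0023, edgeR adjusted p = 0.992). For both genes wild-type replicate 1 was the lowest of its group. Gm45808 is annotated over Bax on the same strand, so how the counting divided reads between them is uncertain.

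Gadd45a, whose product is a stress sensor acting on cell cycle and repair, was at 58.3, 37.4, 47.3 and 40.5 CPM in wild type and at 53.4 ± 5.26, 49.96 ± 6.01 and 48.7 ± 3.46 in clones 1 to 3 (SD, n = 4). Wild-type replicate 1 was the highest of its group here. Bbc3, which encodes the BH3-only protein PUMA, was at 1.43, 5.55, 5.08 and 4.93 CPM in wild type, and its clone means were 7.01 ± 2.33, 4.84 ± 0.774 and 7.20 ± 1.46. The log2 fold changes were 0.15 for Gadd45a (edgeR adjusted p = 0.245) and 0.55 for Bbc3 (0.0918).

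Leaving out wild-type replicate 1 changed the calls of 3 of these 4 genes. Without it, Trp53 (-0.16, adjusted p = 0.00758) and Bax (-0.22, 0.0162) were called lower and Gadd45a (0.30, 0.00365) higher by the edgeR quasi-likelihood test, and 7 of 9 genes were lower and 1 higher. The background in that setting was 18.7% of 15547 genes called lower and 17.5% called higher. The 5 genes described first kept their calls: Zmat3 at -0.72, Ccng1 at -0.72, Cdkn1a at -0.56, Phlda3 at -0.30 and Mdm2 at -0.18 (adjusted p = 0.0228). Without clone 1 replicate 4, where Bbc3 was at 3.57 CPM against 7.68 to 8.54 in the rest of that clone, Bbc3 was called higher (0.63, edgeR adjusted p = 0.0411). Its value dropped to 0.28 (0.289) when wild-type replicate 1 was left out.

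Taken clone by clone against wild type, 3 of the 9 genes were lower in clone 1 (Ccng1, Zmat3 and Phlda3) and all 5 in clone 2 and in clone 3. The background of genes called lower was 19.1%, 16.2% and 15.3%. A test of whether the 3 clones differed, on 2 degrees of freedom, was passed by 3 members, against 28.5% of all genes. These were Cdkn1a (edgeR adjusted p = 1.075e-04), Zmat3 (0.00128) and Mdm2 (0.0343). For Cdkn1a clone 1 stood near wild type, and for Zmat3 clone 2 was lowest at -1.02 against -0.68 and -0.70. Ccng1 (0.963) and Phlda3 (0.780) did not pass.

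**Figure D2:**
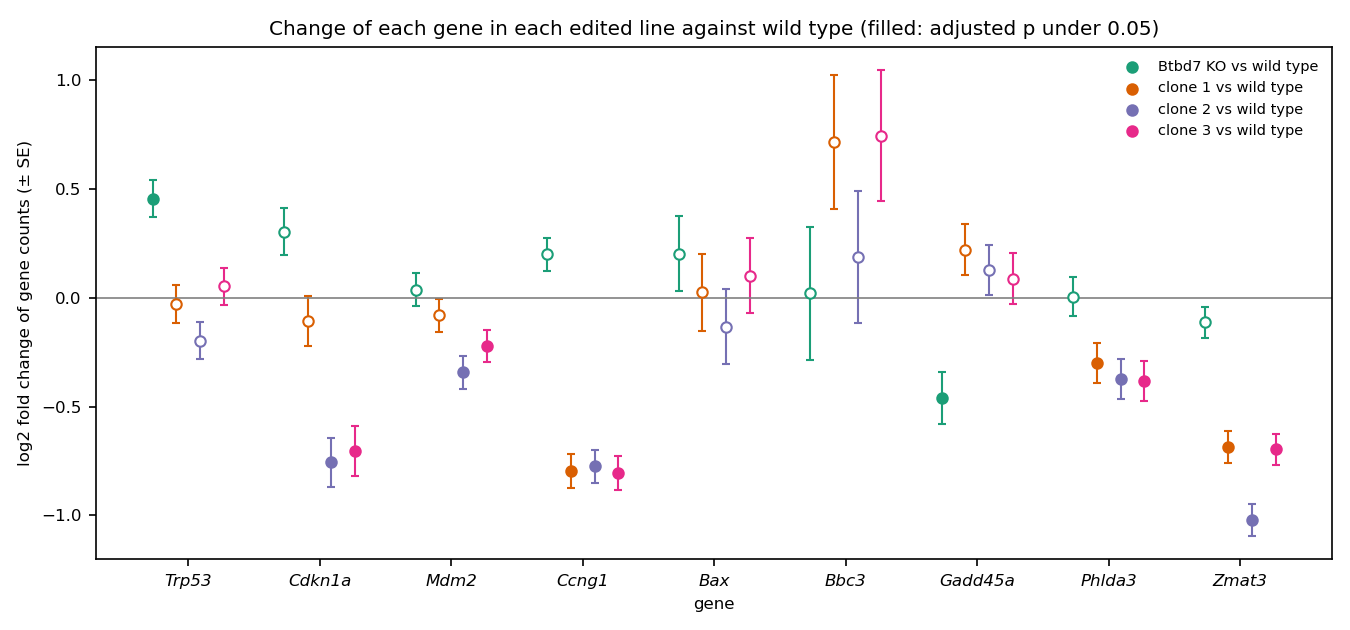
Log2 fold change of the gene counts against wild type (vertical axis, ± SE) for the 9 genes (horizontal axis) in Btbd7 KO and Zcchc8 KO clones 1, 2 and 3; filled points passed an edgeR adjusted p under 0.05 and open points did not. Ccng1, Zmat3 and Phlda3 are below 0 in all 3 clones, and Cdkn1a of clone 1 lies at -0.11, apart from -0.76 and -0.70 in the other clones.

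None of these 5 genes was called lower in the control knockout. In Btbd7 KO against wild type 1 gene was higher and 1 lower, with 7.73% of all genes called higher and 8.0% lower. Trp53 rose to 195.4, 213.4, 193.3 and 200.4 CPM, above every other library in the series (0.45 on the log2 scale with an SE of 0.09, edgeR quasi-likelihood adjusted p = 4.757e-04). Gadd45a fell to 35.6, 35.6, 32.9 and 28.8 CPM, all under the wild-type libraries (-0.46, SE 0.12, adjusted p = 0.00729), a call lost when only these groups were fitted (adjusted p = 0.0669). Cdkn1a (0.30, adjusted p = 0.0605) and Ccng1 (0.20, 0.0738) did not pass with all libraries. Without wild-type replicate 1 Ccng1 did (0.26, 0.00473), and then 2 genes were higher and 1 lower. The background in that setting was 8.93% of all genes called higher and 8.23% lower.

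With Btbd7 KO as the reference in place of wild type, 6 genes were lower in the clones (background 22.2%) and 1 higher (18.8%), with a median of -0.36 over the 9 genes and -0.01 over all. The log2 fold changes were -0.99 for Ccng1, -0.83 for Cdkn1a, -0.69 for Zmat3, -0.51 for Trp53, -0.36 for Phlda3 and -0.25 for Mdm2, at edgeR adjusted p-values from 1.369e-12 to 0.00164. Gadd45a was higher by 0.61 (adjusted p = 2.17e-05). This comparison uses the same Zcchc8 KO libraries as the one with wild type, so the 2 sets of calls are not independent.

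Levels of the 5 lower genes moved together across the 20 libraries, with pairwise Pearson correlations of log2 CPM between 0.652 and 0.898 (0.626 to 0.889 without wild-type replicate 1). Gadd45a ran the other way to the 7 members other than Bbc3, at -0.793 to -0.420. These libraries share their clones and scaling, so the values are descriptions. The genes most like each of the 5 lower members over the 20 libraries were Met (r = 0.96) and Cdk6 (0.96) for Zmat3, Ppa1 (0.97) and G3bp1 (0.97) for Ccng1, Ahsa1 (0.94) and Aif1l (0.93) for Cdkn1a, Ackr3 (0.91) and Cox7b (0.90) for Phlda3, and Rpe (0.89) and Cpne8 (0.88) for Mdm2.

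Other genes of the pathway were read from lists of known roles. In the Zcchc8 KO mean 16.2% of all genes were called higher and 19.9% lower, the background for the lists below. Counts of genes lower or higher in every clone follow a stricter rule, which also asks for a mean count of at least 50. The share of all genes meeting that rule was not computed, so these counts are descriptions. Many calls of the genes named from the lists were lost with cell lines as replicates, as given in the last section. Of 30 tested targets in arrest, repair and metabolism, 14 were lower and 4 higher in the Zcchc8 KO mean than in wild type, at a median of -0.27, with 7 lower in every clone. Plk2, a kinase of centriole duplication, went from 154.2 ± 22.6 CPM to 62.6 ± 14.1, 91.7 ± 7.09 and 111 ± 3.29 in clones 1 to 3 (mean log2 fold change -0.84, edgeR adjusted p = 1.76e-08), and rose in Btbd7 KO (236 ± 11.1, log2 fold change 0.61). Rps27l, a ribosomal protein paralog induced by p53, fell by 0.73 on the log2 scale (adjusted p = 1.956e-06), and Gtse1, which shuttles p53 out of the nucleus, by 0.51 (5.62e-06). In Btbd7 KO 4 of these 30 targets were higher and 0 lower, against 7.73% and 8.0% of all genes, and the list's median was 0.05.

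Of 12 tested targets in cell death, 7 were lower and 1 higher (median -0.21), and 2 were lower in every clone. These 2 were the death receptor gene Eda2r (-0.58, edgeR adjusted p = 8.902e-05) and Perp, which encodes a membrane protein of desmosomes (-0.26, 7.311e-04). Without wild-type replicate 1 Perp was at -0.13 (0.0127), and it was also lower in Btbd7 KO with all libraries (-0.24, 0.0199). Of 22 regulators of p53, 2 were higher and 2 lower (median 0.01), against 16.2% and 19.9% of all genes. Atr, the kinase of the replication stress checkpoint, was lower in every clone (-0.38, adjusted p = 3.519e-06), while Cop1, another ubiquitin ligase of p53, was higher (0.29, 0.00522). Rpl5, whose protein can bind MDM2, was also higher (0.36, 1.173e-04), with the caution that its pseudogenes may share its reads.

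Of the 17 tested relatives of the 9 genes, 4 were higher and 4 lower (median 0.02), against 16.2% and 19.9% of all genes. Of these relatives, 3 were higher in every clone. Bmf, a BH3-only relative of Bbc3, rose from 16.9 ± 7.23 CPM to 59.0 ± 10.2, 39.7 ± 1.53 and 25.8 ± 5.11 (1.22, edgeR adjusted p = 1.496e-05). Bcl2l11, which encodes the BH3-only protein BIM, rose by 0.54 (1.554e-05). Ccng2, the cyclin G2 relative of Ccng1, rose by 0.54 (5.199e-05), while Ccng1 fell. The antiapoptotic Mcl1 was lower (-0.34, 1.552e-05), and lower in Btbd7 KO as well (-0.44).

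Of 30 cell cycle genes that p21 is known to hold down, 16 were lower and 1 higher in the mean (median -0.16), against 19.9% and 16.2% of all genes. By clone, 11 were lower and 6 higher in clone 1, 13 and 2 in clone 2, and 18 and 1 in clone 3. The backgrounds in clones 1, 2 and 3 were 19.1%, 16.2% and 15.3% lower and 16.7%, 16.1% and 14% higher. Cdkn1a itself was lower in clones 2 and 3 and not called in clone 1. Ccna2 (-0.49, edgeR adjusted p = 4.567e-08) and Ccnb1 (-0.39, 4.718e-07), cyclins of the later cell cycle, were lower in every clone. Ccna2 was lower in Btbd7 KO too (-0.34). Mad2l1, of the spindle checkpoint, was lower with all libraries (-0.40, 0.00264) and did not pass without wild-type replicate 1 (-0.14, 0.0596).

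**Figure D3:**
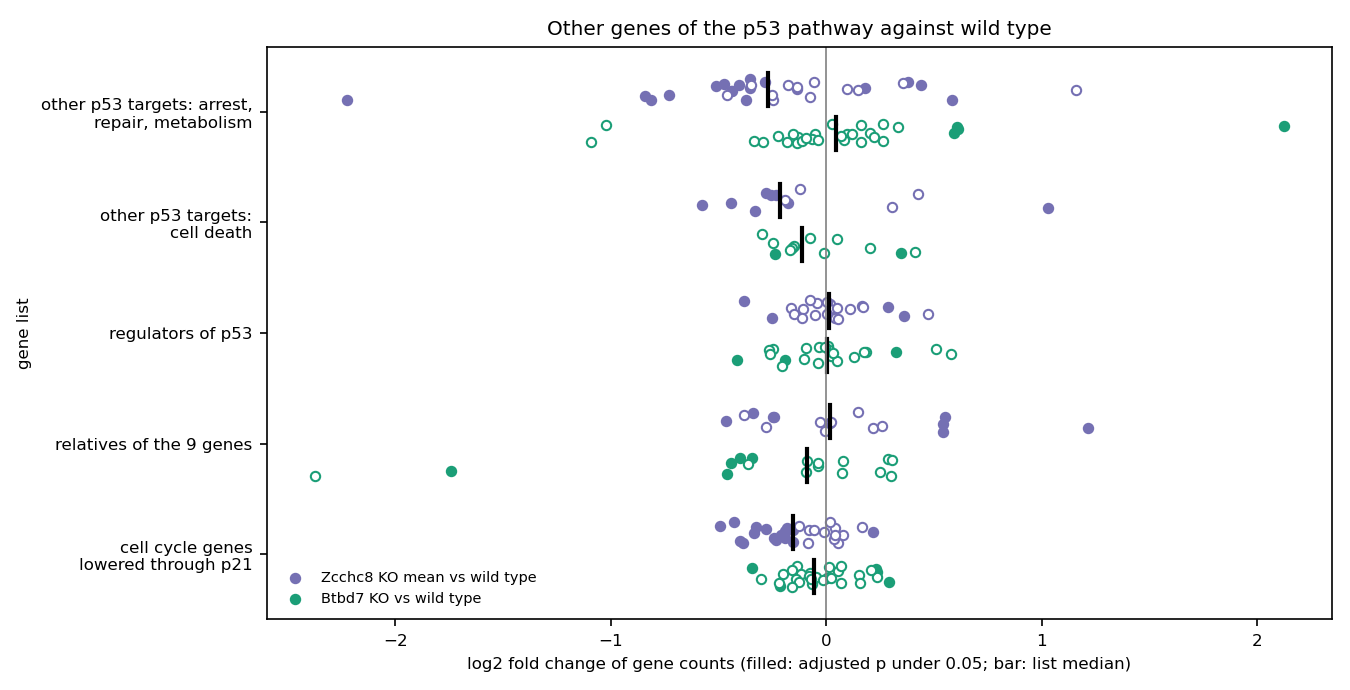
Log2 fold change against wild type (horizontal axis) of each tested gene in the 5 lists (rows), for the Zcchc8 KO mean and for Btbd7 KO; filled points passed an edgeR adjusted p under 0.05. Zcchc8 KO points of the 2 target lists lie mainly below 0 (medians -0.27 and -0.21), and those of the regulators are spread around 0.

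Trp63, a p53 relative and a marker of basal epithelial cells, separated the clones. It was at 2.43 ± 1.11 CPM in wild type, 0.571 ± 0.337 in Btbd7 KO, and 1.47 ± 1.01, 20.7 ± 1.51 and 4.00 ± 0.876 in clones 1 to 3 (SD, n = 4). Clone 2, in which Zmat3, Mdm2 and Cdkn1a were lowest, was thus 3.07 above wild type on the log2 scale (edgeR adjusted p = 7.187e-08). Summed basal and myoepithelial markers ran from 251.8 to 395.1 CPM in wild type, 400.8 to 420.2 in Btbd7 KO, 162.1 to 214.2 in clone 1, 257 to 326.3 in clone 2 and 189.4 to 222.6 in clone 3, with 3 of the 5 markers above 3 counts in any library and Acta2 and Cnn1 at or under it. Summed acinar markers were at 167.9 to 190.2 CPM in wild type and lower in every edited group (109.3 to 115.0 in Btbd7 KO, and 136.1 to 164.4, 126.7 to 155.1 and 114.6 to 123.9 in clones 1 to 3), with Smgc, 1 of the 5, at 3 counts or fewer throughout. Fibroblast markers summed to 9.30 to 14.9 CPM in wild type, 16.6 to 26.1 in Btbd7 KO, and 9.88 to 13.8, 24.4 to 28.1 and 21.1 to 24.98 in clones 1 to 3, with Dcn and Pdgfrb, 2 of the 5, at 3 counts or fewer. Immune markers, of which all 3 passed 3 counts somewhere, summed to 7.61 to 9.61 CPM in wild type, 7.52 to 8.68 in Btbd7 KO, and 12.9 to 16.4, 11.7 to 15.3 and 6.81 to 10.1 in clones 1 to 3. The part of these markers in the members' changes was not tested.

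The upstream regions of these genes were mostly higher in the Zcchc8 KO clones, those of genes that fell and of genes that did not. PROMPT counts are small, so raw counts are given with the CPM values, which are scaled to each library's gene counts. Of the 9 regions, 8 passed the filter on low counts, and 7 of these were higher in the Zcchc8 KO mean than in wild type. The background was 39.9% of 17655 regions called higher. The median log2 fold change was 2.06 over the 8 regions and 0.449 over all regions tested. Cdkn1a, with at most 12 counts in a library, did not pass the filter. The filter counts libraries of any group. For Mdm2, Ccng1, Phlda3 and Bax no control library was above 0.70 CPM, and these regions passed through Zcchc8 KO libraries alone. The count of 7 and the median of 2.06 are therefore partly set by the filter, which the background regions passed as well.

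Upstream of Mdm2 the wild-type libraries 2, 3 and 4 held 11, 3 and 9 counts, and the Btbd7 KO libraries 6, 0, 1 and 4. Clone 1 held 37, 44, 51 and 39, clone 2 32, 59, 73 and 71, and clone 3 36, 29, 39 and 62. Every Zcchc8 KO library was above every control library, in counts and in CPM (0.46 ± 0.214 in wild type, n = 3, against 5.83 ± 1.19, 4.46 ± 0.334 and 3.85 ± 1.02 in the clones, SD, n = 4). The fitted rise was 9.57-fold (log2 fold change 3.26 with an SE of 0.37, edgeR quasi-likelihood adjusted p = 2.502e-11), in a gene whose own RNA was lower in the clones' mean but not called in clone 1.

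Upstream of Gadd45a wild type had 40, 35 and 24 counts, Btbd7 KO 33, 24, 14 and 15, clone 1 65, 59, 38 and 54, clone 2 42, 74, 117 and 63, and clone 3 57, 45, 41 and 53. In CPM the 12 Zcchc8 KO libraries were all above the controls, with clone means of 7.27 ± 1.32, 5.58 ± 0.997 and 4.63 ± 0.965 against 2.10 ± 0.620 in wild type. The rise was 2.73-fold (log2 fold change 1.45 with an SE of 0.24, edgeR quasi-likelihood adjusted p = 1.036e-06). The annotation places E230016M11Rik on the other strand, from within Gadd45a through the whole 5 kb upstream of it. The strand used in counting is not given in the sources used here, so reads of the 2 cannot be told apart with certainty. Counted as a gene, E230016M11Rik was at -0.13 on the log2 scale in the Zcchc8 KO mean, and its part in this region was not tested.

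The Zmat3 region held 18, 11 and 19 counts in wild type, 19, 14, 9 and 8 in Btbd7 KO, 16, 15, 15 and 22 in clone 1, 22, 46, 42 and 48 in clone 2, and 41, 23, 24 and 22 in clone 3. In CPM, which allows for the smaller libraries of clone 1, no Zcchc8 KO library overlapped the controls, and the rise was 2.61-fold (log2 fold change 1.38 with an SE of 0.34, edgeR quasi-likelihood adjusted p = 5.826e-04). The Zmat3 gene fell in the same libraries.

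Ccng1 and Phlda3 started from almost nothing. Upstream of Ccng1 the wild-type libraries held 0, 0 and 12 counts and the Btbd7 KO libraries 3, 3, 2 and 0, against 5 to 30 in the 12 Zcchc8 KO libraries. Summed over libraries and set against gene counts, that was a ratio of 6.65 to wild type (exact 95% interval 3.72 to 13.1) and of 10.8 to Btbd7 KO (5.37 to 25.3), intervals that cover counting error only. All Zcchc8 KO libraries were above Btbd7 KO, but 2 of clone 2 (0.693 and 0.557 CPM) lay below the wild-type library with 12 counts (0.699), on which the size of the fitted rise rests (2.67 on the log2 scale with an SE of 0.63, edgeR quasi-likelihood adjusted p = 3.166e-04, and 7.23 without that library, where wild type is at 0).

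Upstream of Phlda3 there were 4, 6 and 0 counts in wild type, 8, 3, 0 and 1 in Btbd7 KO, and 7 to 31 in the Zcchc8 KO libraries, all of which were higher in CPM. The rise was 6.37-fold (log2 fold change 2.67 with an SE of 0.64, edgeR quasi-likelihood adjusted p = 3.99e-04). In the mean of the clones Phlda3 thus joined Mdm2, Zmat3 and Ccng1 in having a lower gene and a higher upstream region. Mdm2 did not show both in clone 1, where its region was higher (3.59) but its gene was not called (-0.08, edgeR adjusted p = 0.444).

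The 2 death effectors differed. Bax had 1 upstream count in the 3 wild-type libraries together, 6 in Btbd7 KO and 57 in the Zcchc8 KO libraries, a ratio to wild type of 22.4 with an exact 95% interval of 3.86 to 900.0. The edgeR test called Bax against wild type (adjusted p = 0.00348) but not against Btbd7 KO (0.0581), where the ratio was 4.04 (1.74 to 11.5). One clone 1 library had 0 counts, and clones 2 and 3 were above all wild-type libraries. Gm45808, on the same strand, is annotated from within Bax through the whole 5 kb upstream of it. The gene Dhdh ends 4089 bp upstream of Bax on the same strand and was itself higher in Zcchc8 KO (0.206 ± 0.208 CPM in wild type against 3.29, 2.62 and 2.78 in the clones, log2 fold change 3.74, adjusted p = 1.784e-05). The part of Gm45808 and of Dhdh in the Bax region was not tested, and the extent of the PROMPT regions is not given in the sources used here.

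Upstream of Bbc3 there was RNA in every control library, and the rise was the smallest of those called. The region read 2.54, 2.51 and 2.39 CPM in wild type, 1.68, 2.07, 0.493 and 2.03 in Btbd7 KO, 4.46, 2.99, 6.57 and 3.10 in clone 1, 5.12, 6.26, 3.01 and 2.65 in clone 2, and 3.13, 4.76, 3.19 and 3.05 in clone 3. No Zcchc8 KO library overlapped the controls. The rise of 1.60-fold (log2 fold change 0.68, SE 0.28) had an edgeR adjusted p of 0.0472, and the call was lost in 13 of 28 other settings. Among these was the use of TMM factors from all 20 gene libraries (0.66, edgeR adjusted p = 0.0542).

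Trp53 was the only region of the 8 not called against wild type with all libraries. It was at 8.42, 5.69 and 4.84 CPM in wild type, 6.65, 6.27, 5.67 and 5.84 in Btbd7 KO, 9.31, 6.67, 8.91 and 8.90 in clone 1, 6.79, 9.35, 9.91 and 7.38 in clone 2, and 7.53, 6.77, 8.05 and 7.81 in clone 3. All Zcchc8 KO libraries were above Btbd7 KO and overlapped wild type, whose replicate 2 was high. The log2 fold change was 0.36 against wild type (edgeR adjusted p = 0.0786) and 0.41 against Btbd7 KO (0.0254). Without wild-type replicate 2 it was called against wild type, at 0.63 (0.00852), as it was by DESeq2 (0.37, adjusted p = 0.0454) and without TMM factors (0.42, 0.0398). The gene Wrap53 starts 104 bp from Trp53 on the other strand, so its own transcripts lie where Trp53 PROMPTs would be. Wrap53 differed by 0.17 on the log2 scale (edgeR adjusted p = 0.428).

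Cdkn1a held 6, 1 and 0 upstream counts in wild type, 0, 6, 1 and 6 in Btbd7 KO, 4, 12, 2 and 8 in clone 1, 1, 3, 8 and 6 in clone 2, and 10, 2, 2 and 6 in clone 3. The groups overlapped library by library. Summed and set against gene counts, the Zcchc8 KO libraries had 3.59 times the wild-type signal (exact 95% interval 1.65 to 9.29) and 2.09 times that of Btbd7 KO (1.14 to 4.14), for counting error only. Which of the 2 Cdkn1a starts the region lies before is not given in the sources used here.

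**Figure D4:**
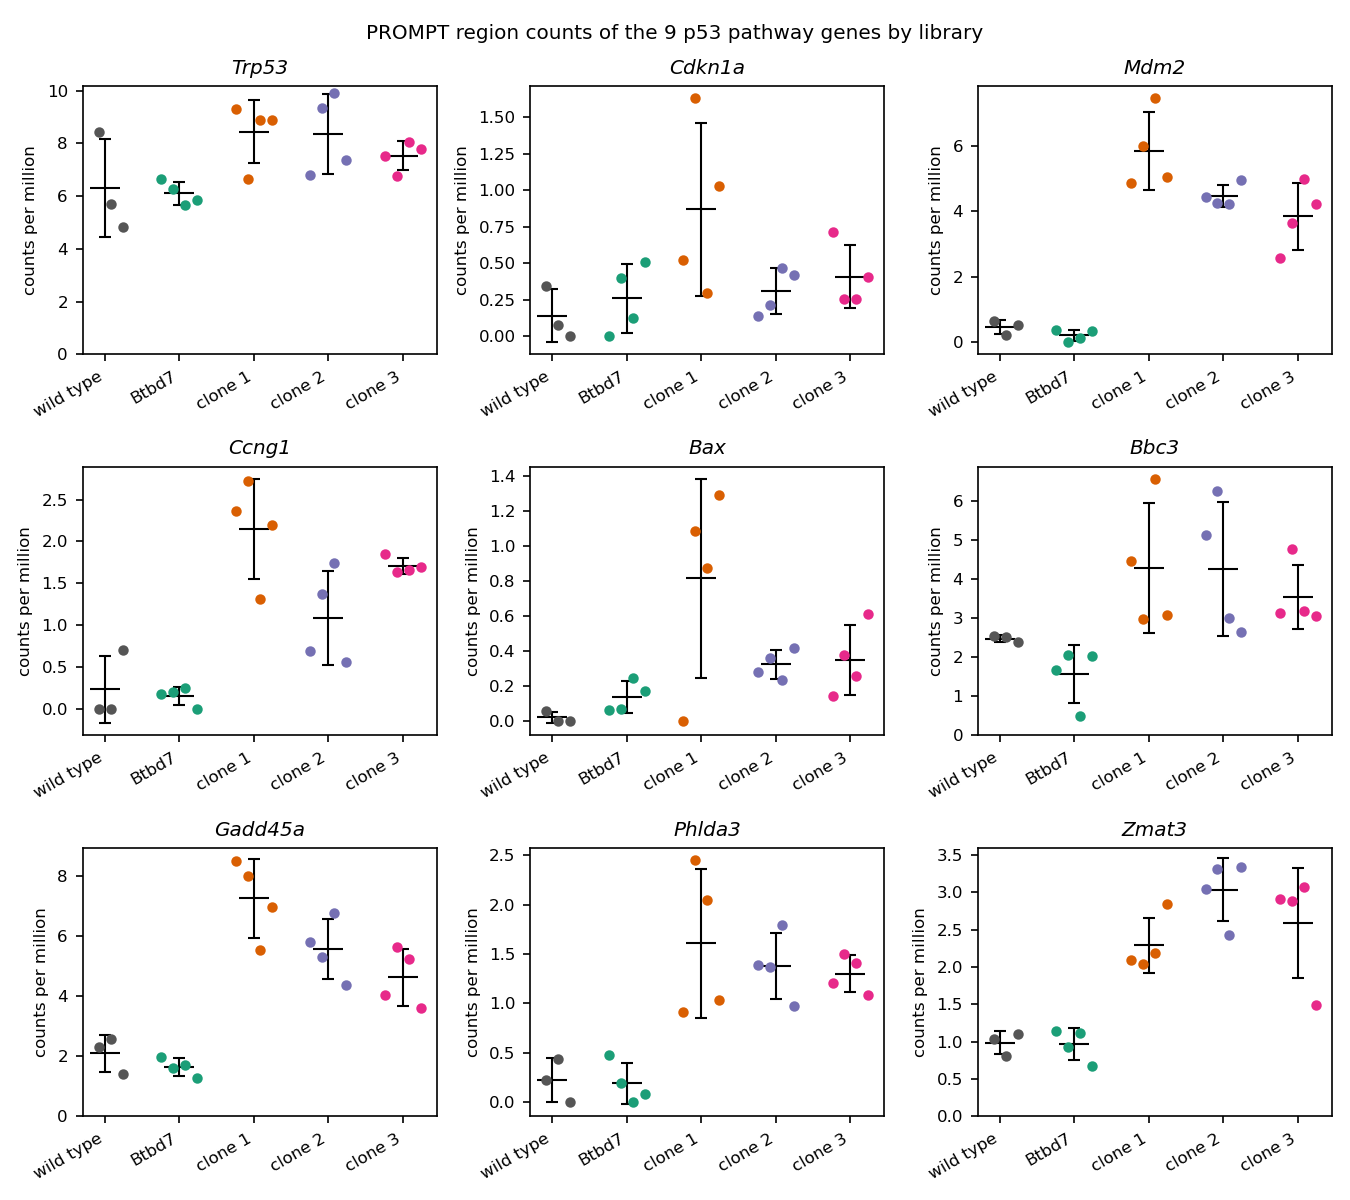
PROMPT signal upstream of each of the 9 genes in CPM of gene counts (vertical axis, from 0) in the 19 libraries of the 5 groups (horizontal axis); points are libraries, bars the mean ± SD of 3 wild-type or 4 other libraries. The 12 Zcchc8 KO libraries lie above all control libraries for Mdm2, Gadd45a, Phlda3, Zmat3 and Bbc3, and overlap wild type for Trp53.

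The clones had the same regions called. In each clone against wild type the same 6 regions, all tested ones but Trp53 and Bbc3, were called higher, with 39.3%, 36.0% and 36.7% of all regions called higher in clones 1, 2 and 3. Those of Mdm2, Ccng1, Phlda3 and Bax had passed the filter through Zcchc8 KO libraries alone. None of the 8 regions differed between clones by the edgeR test on 2 degrees of freedom (adjusted p from 0.147 to 0.936), against 10.9% of all regions. In Btbd7 KO none was called, where 1.35% of regions were higher and 1.68% lower. Against Btbd7 KO 7 of 8 were higher (background 45.6%), from 4.38 on the log2 scale for Mdm2 to 0.41 for Trp53, with Bax (1.81) not called.

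The size of these rises depends on the scale. Scaled to each other instead of to the gene counts, all regions together had a median of 0.02 instead of 0.45, and 5054 were higher and 3665 lower where the gene-count scale gave 7036 and 585. On that scale 30.1% of 16765 regions were called higher and 21.9% lower. Of the members' regions 5 were called higher: Mdm2 (2.87), Ccng1 (2.29), Phlda3 (2.28), Gadd45a (1.05) and Zmat3 (0.99). Those of Mdm2, Ccng1 and Phlda3 had passed the filter on the gene-count scale through Zcchc8 KO libraries alone. Bbc3 (0.28) was not called, Trp53 turned to -0.04 (edgeR adjusted p = 0.863), and Bax was not tested there.

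A ratio of PROMPT to gene counts within each library avoids the choice of scale between libraries, except where PROMPT counts are near 0. As log2((PROMPT + 0.5)/(gene + 0.5)), it was higher in the 12 Zcchc8 KO libraries than in the 3 wild-type libraries for 8 of 9 genes at an adjusted p under 0.05 (exact two-sided permutation test, Benjamini-Hochberg over the 9 ratios). The ratio was computed for these 9 genes only, so no share over all genes stands beside the count of 8. The permutation treats the 12 libraries as interchangeable, although they come from 3 clones. For Mdm2 the ratio was -7.45 ± 0.756 in wild type (SD, n = 3) and -3.74, -3.86 and -4.21 in clones 1 to 3, a difference of 3.52. The differences were 4.81 for Ccng1, 3.51 for Phlda3, 2.10 for Zmat3 and 1.17 for Gadd45a, and with Mdm2 these had the smallest p that the exact permutation test of 12 against 3 can give, 0.004396. Cdkn1a (2.74) and Bax (3.41) had an exact p of 0.00879, Trp53 (0.55) one of 0.0264, and Bbc3 (0.38) one of 0.299. Where PROMPT counts were 0, the added 0.5 made this ratio depend on depth. Bax, at 0 in each, scored -9.05 in clone 1 replicate 1 against -10.2 and -10.3 in the deeper wild-type replicates 3 and 4. Wild type also had libraries at 0 for Ccng1, Cdkn1a and Phlda3. With 4 against 3 libraries the smallest possible p is 0.0571, so no single clone or Btbd7 KO could pass alone. Without wild-type replicate 3 or without replicate 4, 5 ratios passed, and Trp53, Cdkn1a and Bax did not.

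**Figure D5:**
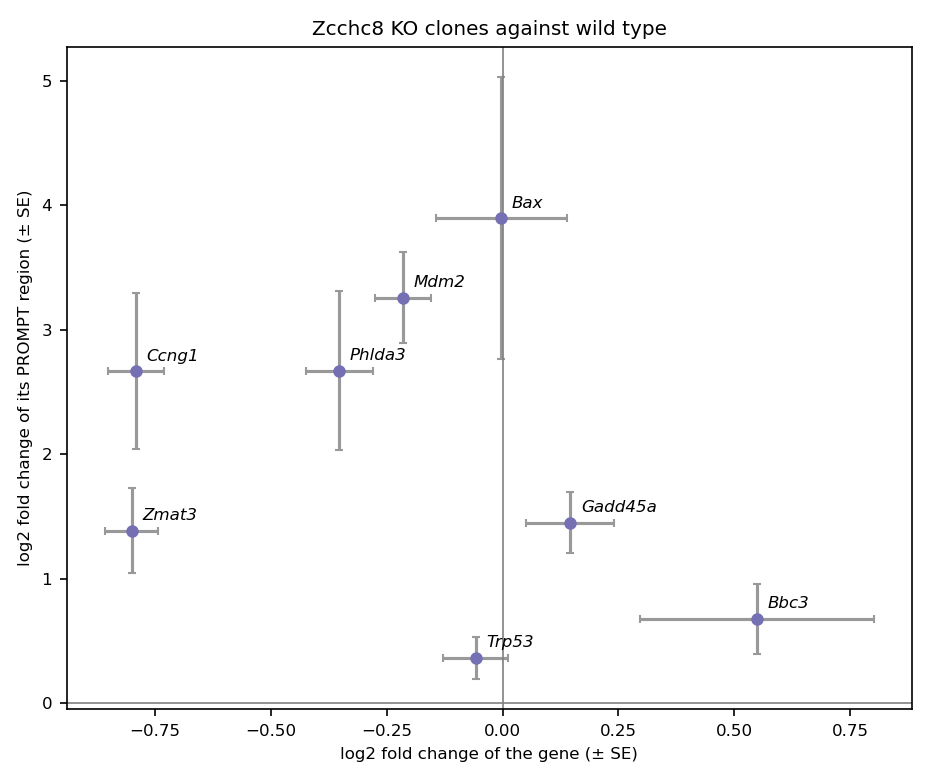
Log2 fold change of the gene (horizontal axis, ± SE) against that of its PROMPT region (vertical axis, ± SE) in the mean of the Zcchc8 KO clones against wild type, for the 8 genes whose region was tested. Mdm2, Ccng1, Phlda3 and Zmat3 lie left of 0 and above it, and Trp53 lies near the origin.

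The size of the upstream rise did not order the fall of the gene. Mdm2 had a log2 rise of 3.26 upstream and a fall of 0.21 in the gene, whereas Zmat3 rose by 1.38 upstream and fell by 0.80. Gadd45a rose by 1.45 upstream with a gene at 0.15. In the annotation 6 of the 9 genes had no other gene within 5 kb upstream, and 1 of these 6, Cdkn1a, was overlapped on the other strand by AC167363.2.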

How the data were processed

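The 9 members and the gene lists were chosen with earlier results of these data known. Gene and PROMPT counts are raw counts deposited by the authors. Per the submitters' processing notes reads were checked with FastQC and aligned with STAR 2.7.3a, and the counting tool, genome build, annotation, counting strand and PROMPT extents are not given in the sources used here. Genes were counted in 20 libraries and PROMPTs in 19, without wild-type replicate 1. Symbols came from GENCODE M21: 54573 of 55471 identifiers matched with their version and 55230 without it. Total gene counts ran from 6833258 to 17771804 per library.

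From these counts CPM with TMM factors were computed, and all 5 groups were fitted together with edgeR 4.0.16 (R 4.3.3), filterByExpr and the quasi-likelihood F-test, 1 coefficient per group. PROMPT counts used library sizes and TMM factors of a second deposited set of gene counts, which lacks wild-type replicate 1. Its 19 libraries have the same counts as in the set of 20. P-values were adjusted by Benjamini-Hochberg over 15297 genes or 17655 regions, and called under 0.05. The Zcchc8 KO mean weights the 3 clones equally. Ratios used a pseudocount of 0.5 and an exact two-sided permutation test (scipy 1.17.1). Intervals are exact (Clopper-Pearson, 95%). The tests were checked on simulated data. Genes named from a list were those called the same way in every clone with a mean count of at least 50, up to 3 per direction by fold change. Alternatives covered DESeq2 1.42.0, scaling, filters, pseudocount, a replicate block, cell lines as replicates (3 clones against the 2 control lines) and leaving out each library.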

Additional observations from a re-analysis of the deposited data

Results flagged for a closer look

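Among 81 groups of 4 libraries, 6 held a library far from the rest of its group by Dixon's 95% criterion, which chance reaches in about 1 of 20 groups. For gene counts these were Bbc3 in wild-type replicate 1 (1.431 CPM, the others 4.93 to 5.55), Bbc3 in clone 1 replicate 4 (3.566, the others 7.68 to 8.54) and Ccng1 in Btbd7 KO replicate 4 (243.9, the others 211.5 to 216.7). For PROMPTs they were Bbc3 in clone 3 replicate 2 (4.764, the others 3.05 to 3.19), Trp53 in clone 1 replicate 2 (6.665, the others 8.90 to 9.31) and Zmat3 in clone 3 replicate 4 (1.493, the others 2.88 to 3.07).

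The 3 Zcchc8 KO clones differed from each other for the gene Cdkn1a (edgeR adjusted p = 0.0001075), where clone 1 was near wild type. They differed for Zmat3 (adjusted p = 0.001275), where clone 2 was lowest, and for Mdm2 (adjusted p = 0.03426), where clone 2 was lowest and clone 1 highest.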

How the results depend on the processing

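Of 2326 values recomputed for 89 results, 2210 were classed as unchanged. For single-gene tests that meant the same direction and side of the threshold (1876 of 1974). For counts of genes it meant a similar number, which need not be identical. In single-gene tests 43 calls were lost, 20 gained and 35 values changed sign. Of the sign changes 1 was in a called result, Trp53 PROMPTs against Btbd7 KO, at -0.032 with scaling within the PROMPT table, which also gave -0.039 against wild type. The cause was not tested in any of these.

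The values that changed sign lay between -0.26 and 0.14 afterwards. The largest beforehand was 0.41, for Trp53 PROMPTs against Btbd7 KO. Without TMM factors Trp53 was at 0.020 and Bax at 0.074, where over all genes 61.7% of calls were higher against 44.8% with them and 55.9% by DESeq2. Bax was at 0.03504 and Phlda3 in Btbd7 KO at -0.005986 by DESeq2, and Wrap53 at -0.11 with cell lines as replicates. Leaving out single libraries, Bax ranged from -0.22 to 0.14, Trp53 from -0.16 to 0.0089, Btbd7 from -0.010 to 0.050 and E230016M11Rik from -0.31 to 0.022 in Zcchc8 KO. In Btbd7 KO Bax ranged from -0.029 to 0.34, Bbc3 from -0.26 to 0.18, Phlda3 from -0.041 to 0.087 and Mdm2 from -0.022 to 0.10.

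With a log2 fold change over 1 also required, 0 genes were called against wild type in the Zcchc8 KO mean or in Btbd7 KO, 0 in all 3 clones at once (Zmat3 passed in clone 2, at -1.02), and 0 higher or lower against Btbd7 KO. With cell lines as replicates, where counts were summed per line and the 3 clones were compared with wild type and Btbd7 KO together, so that the reference changed too, 2 genes were lower (Zmat3 and Ccng1), and Cdkn1a (adjusted p = 0.136), Phlda3 (0.131) and Mdm2 (0.312) were lost. Of the other named genes, Gtse1, Eda2r, Perp, Rpl5, Cop1, Atr, Bcl2l11, Mcl1, Ccna2, Mad2l1, Ccnb1, Trp63 and Zcchc8 also lost their calls with lines as replicates. Their edgeR quasi-likelihood adjusted p ran from 0.0682 to 0.684. Plk2, Rps27l, Bmf and Ccng2 kept their calls. Fitting only the groups compared gave 0 lower in Btbd7 KO and 2 higher against Btbd7 KO, and DESeq2 gave 2 higher in Btbd7 KO. Leaving out libraries, 0 to 1 genes were higher against wild type, 1 to 2 in Btbd7 KO, 1 to 2 against Btbd7 KO, and 5 to 8 ratios passed.

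A block for the replicate number left 5 genes lower in the Zcchc8 KO mean, with Bax at 0.028; same-numbered libraries did not deviate together (40 pairs, correlations -0.087 to 0.152), so they share only a number. Small libraries of clone 1 and PROMPT counts under about 10 limit what Cdkn1a, Bax, Ccng1 and Phlda3 regions can show.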
